A study of Mus musculus with 2 samples.

Results

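The small leucine-rich proteoglycans were read on 2 arrays of NIH3T3 cells, mouse embryonic fibroblasts that divide without limit in culture. The members were 10 genes given by name (Dcn, Bgn, Aspn, Fmod, Lum, Prelp, Kera, Omd, Ogn and Podn), and every probe set annotated to them was taken, which gave 21 of the 45101 probe sets on the array and 10 of the 18194 genes that had at least 1 unshared probe set. They were proposed with earlier results of these arrays known, from the same contrast that is described here, so their values are a description and carry no test. Both cultures were infected with a retrovirus expressing a short hairpin RNA, grown in DMEM with fetal bovine serum, and differed in the hairpin: control RNAi in one, CCR4b RNAi in the other. CCR4b, or CNOT6L, is one of the enzymes with which the CCR4-NOT complex trims the poly(A) tails of mRNAs. The study set the cultures side by side to see how its loss alters the transcriptome. With 1 array for each hairpin there is no replicate error on any value, and the labels do not say how many hairpins or infections stand behind a culture. Higher and lower below always describe the CCR4b RNAi array against the control RNAi array of this pair. On bulk RNA of this kind, fewer cells that express a gene and less RNA per cell cannot be told apart.

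These proteoglycans are secreted proteins with a curved core of leucine-rich repeats, most of which carry chondroitin or dermatan sulfate, or keratan sulfate, chains. They bind collagen fibrils and set fibril diameter and spacing in skin, tendon, bone, cartilage and cornea, and several also bind TGF-beta or act on cell-surface receptors. They are sorted into classes by their sequence: decorin, biglycan and asporin form class I, fibromodulin, lumican, PRELP, keratocan and osteomodulin class II, osteoglycin belongs to class III and podocan to class V.

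The arrays were close in their overall signal, with a median of 7.81 arbitrary units for the control and 8.34 for the CCR4b hairpin. Signals were raised to a floor of 8.07 units, the median of all values, and a gene was called measured where the brighter array reached the floor. This held for 11915 genes, whose median log2 ratio was -0.070. Of these, 3.74% were at least 2-fold higher and 4.48% at least 2-fold lower, and 11.3% and 14.6% passed 1.5-fold. Probe sets of the same gene differed by a robust SD, which is a median absolute deviation scaled to an SD, of 0.30 log2 units each. The targeted gene Cnot6l read 102 units in the control and 43.0 units after CCR4b RNAi on its brightest probe set, 2.38-fold lower, and all 4 of its probe sets had the same direction. Actb and Gapdh had log2 ratios of -0.11 and -0.075. Their 3'/5' signal ratios, a sign of RNA integrity, were 1.35 and 1.46 for Actb and 0.824 and 0.819 for Gapdh in the control and CCR4b RNAi cultures.

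Of the 10 genes, Prelp, Ogn, Aspn and Omd were at least 2-fold higher after CCR4b RNAi, Lum, Bgn and Dcn were higher by less than 2-fold, Podn was level, Fmod lay near the floor and Kera below it. The 4 genes past 2-fold stand beside a background of 3.74% of measured genes at least 2-fold higher, from which nothing is read because the members were chosen on this contrast. None of the 10 was 2-fold lower, against 4.48% of measured genes. Only 6 members were above the floor on both arrays, and of these Prelp and Ogn passed 2-fold. Aspn, Omd and Fmod were counted as measured only through the CCR4b RNAi array, so their ratios had to be above 0 and are lower bounds. The deposited signal, before any floor, was higher after CCR4b RNAi on 19 of the 21 probe sets, where 49.5% of all probe sets were higher. The exceptions were the single Podn probe set and 1 Fmod probe set. Nothing is read from this count either, because the members were chosen on this contrast. It also includes Kera, below the floor on both arrays, and Fmod probe sets below the floor in the control. At the 2-fold threshold, Lum lay just outside (1.64-fold). The Omd bound was just inside (at least 2.34-fold), and how far Omd itself lay past the threshold is not known.

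**Figure D1:**
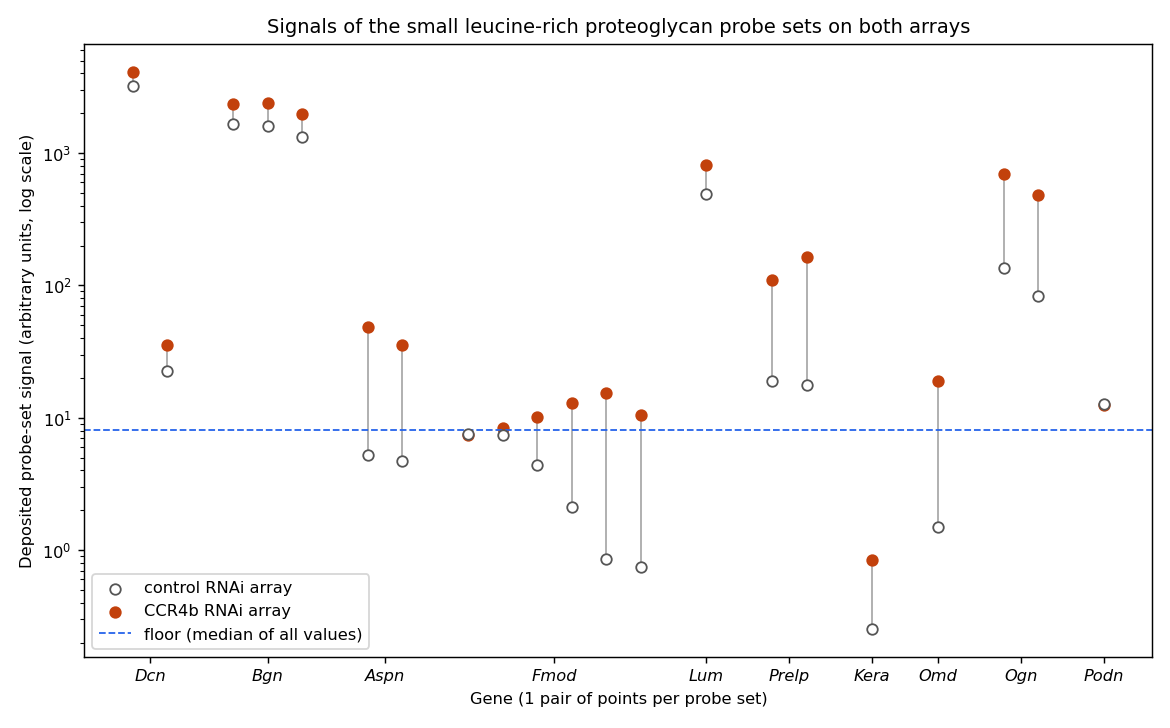
Deposited signal of each of the 21 family probe sets (log axis, arbitrary units) on the control RNAi array (open) and the CCR4b RNAi array (filled), 1 pair of points per probe set, with the floor of 8.07 units as a dashed line. Both Prelp and both Ogn pairs are wide and lie above the floor, both Aspn pairs and the Omd pair start below it, and the Podn pair is closed. Heights of different probe sets are not comparable.

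Prelp encodes a class II protein with a basic amino-terminal region that binds heparan sulfate and anchors basement membranes to connective tissue. Its probe set 1416321_s_at read 17.8 units in the control and 165 units after CCR4b RNAi, a 9.25-fold difference (log2 ratio 3.21). Its second probe set, 1416322_at, read 18.9 and 110 units, 5.82-fold higher (log2 ratio 2.54). The ratios of the pair lay 0.67 log2 units apart. Identifiers ending in _s_at or _x_at mark probe sets that can hybridise to several transcripts, and only the larger of the Prelp ratios comes from one. Genes of similar signal had a robust SD of 0.50 log2 units, and the Prelp ratio was the highest in its class of signal, 1 of 10 equal classes.

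Ogn encodes osteoglycin, also called mimecan, a class III protein of bone, cornea and vessel walls. It read 135 units in the control and 696 units after CCR4b RNAi on 1419662_at, 5.16-fold higher (log2 ratio 2.37). On 1419663_at it read 82.9 and 486 units, 5.86-fold higher (log2 ratio 2.55). The ratios of the pair lay 0.18 log2 units apart, less than the usual distance between probe sets of one gene, and neither identifier is of a cross-hybridising kind. Both values were well above the floor on both arrays, and genes of similar signal had a robust SD of 0.41. The ratio was at percentile 99.9 of its class.

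Aspn encodes asporin, a class I protein with a run of aspartate residues that lacks a glycosaminoglycan chain and binds TGF-beta. It read 5.19 units in the control, below the floor, and 48.4 units after CCR4b RNAi on 1416652_at, which makes it at least 5.99-fold higher. The second probe set, 1448421_s_at, read 4.75 and 35.2 units, at least 4.36-fold higher. Both probe sets therefore passed from below to well above the floor, and the bounds lay 0.46 log2 units apart. Such a crossing was made by 1002 measured genes, of which 11.1% had a bound of at least 2-fold, and by 853 genes in the opposite direction.

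Omd encodes osteomodulin, also called osteoadherin, a keratan sulfate protein of mineralised tissue. Its only probe set, 1418745_at, read 1.501 units in the control. After CCR4b RNAi it read 18.9 units, which is at least 2.34-fold higher. The control value cannot be told from background, so the size of the difference above this bound is not known. Genes of like signal spread widely, with a robust SD of 0.84 log2 units.

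Fmod encodes fibromodulin, a tendon and cartilage protein that guides collagen cross-linking, and its values depended on the probe set. It has 6 probe sets, all below the floor in the control, at 0.744 to 7.57 units. After CCR4b RNAi, 5 of them were above the floor, at 8.33 to 15.4 units. The probe set that stood for the gene by mean signal, 1437685_x_at, read 7.44 and 8.33 units, a bound of 1.03-fold. The single probe set without a cross-hybridisation mark, 1415939_at, read 2.12 and 13.0 units, at least 1.61-fold higher. The widest of the others, 1456084_x_at, read 0.856 and 15.4 units, at least 1.904-fold higher. On 1437324_x_at, signals were 7.57 and 7.39 units, both below the floor. The bounds of the 5 measured probe sets ran from 0.046 to 0.93 log2 units, and the size of the Fmod difference above them is not known.

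Decorin, biglycan and lumican, the members best known from fibroblasts, were higher by smaller amounts. Dcn encodes decorin, which coats collagen fibrils and binds TGF-beta and growth factor receptors. It read 3202 units in the control and 4116 units after CCR4b RNAi on 1449368_at, 1.29-fold higher (log2 ratio 0.36). The second Dcn probe set, 1441506_at, read 22.8 and 35.5 units, 1.56-fold higher (log2 ratio 0.64). The Dcn ratio stood about as far from 0 as the robust SD of its class, 0.36 log2 units. That class, the brightest, had a median log2 ratio of -0.17, below 0, and Dcn was at percentile 90.0 of it.

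Bgn encodes biglycan, a class I protein that also acts as a ligand of TLR2 and TLR4 once released from the matrix. Its 3 probe sets read 1672, 1603 and 1319 units in the control and 2365, 2395 and 1975 units after CCR4b RNAi. The differences were 1.41-fold, 1.49-fold and 1.497-fold, and the log2 ratios lay within 0.082 of each other. Among the members with several probe sets, Bgn was the one on which they differed least. It was at percentile 92.8 of its class. Lum encodes lumican, a keratan sulfate protein of cornea and skin, and has 1 probe set, 1423607_at. It read 495 units in the control and 812 units after CCR4b RNAi, 1.64-fold higher (log2 ratio 0.71), at percentile 96.8 of the same class.

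Podn and Kera did not share this direction at a measurable level. Podn encodes podocan, a class V protein of vessel walls and kidney, and read 12.8 units in the control and 12.5 units after CCR4b RNAi on 1435180_at (log2 ratio -0.027). Genes of like signal had a far larger robust SD, 0.68 log2 units. Kera encodes keratocan, a keratan sulfate protein of the cornea, and read 0.253 and 0.835 units, both far below the floor, so no ratio is given for it.

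**Figure D2:**
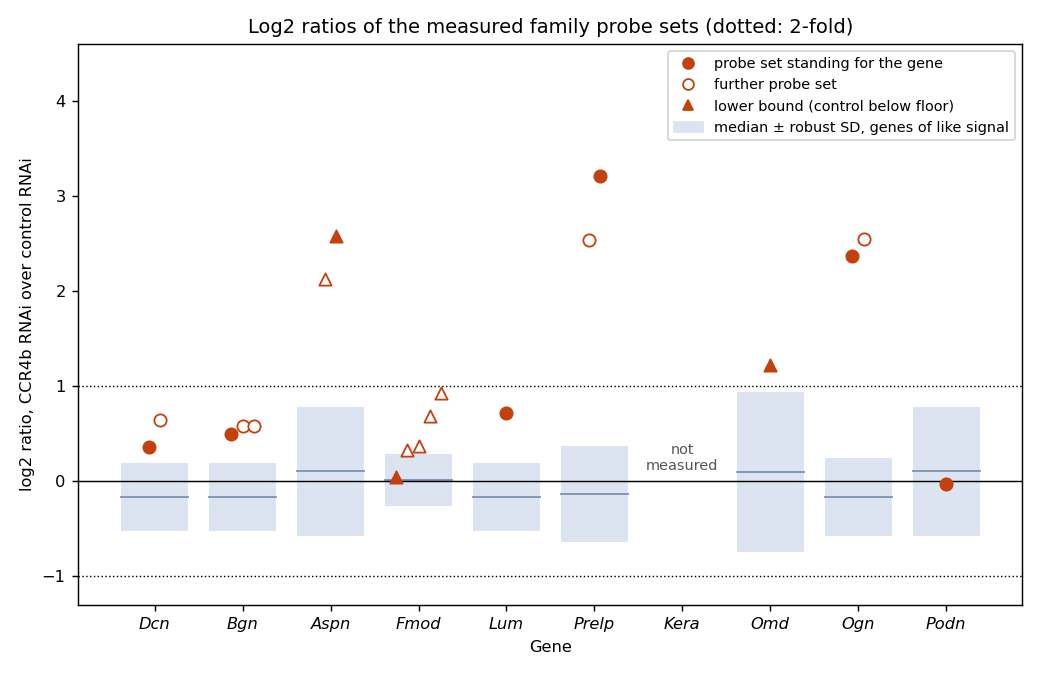
Log2 ratio of CCR4b RNAi over control RNAi for the 19 measured family probe sets, by gene. Filled symbols mark the probe set that stands for the gene, triangles mark lower bounds, and the shaded band is the median ± robust SD of genes of like signal; Prelp and Ogn lie far above their bands on both probe sets, Podn lies inside its band, and the height of the triangles is set by the floor.

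Agreement between probe sets could be read on 4 members that had more than 1 probe set bright enough on each array: Prelp, Ogn, Dcn and Bgn. Each further probe set of these genes was higher, like the first. Over all 6 members with several measured probe sets, 10 of 10 further probe sets had the sign of the one that stands for the gene, but those of Aspn and Fmod had to, because their control signal was below the floor. Over the whole array, 64.5% of 9548 further probe sets had the sign of the brightest. Among genes at least 2-fold higher on their brightest probe set, 221 of 277 further probe sets were also above 0.

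Of the 6 members that both arrays read above the floor, log2 ratios ran from Prelp (3.21) and Ogn (2.37) through Lum (0.71), Bgn (0.50) and Dcn (0.36) to Podn (-0.027). Aspn (at least 2.58), Omd (at least 1.23) and Fmod (at least 0.046) are known only by a bound and have no place in this order. The ratios of Lum, Bgn and Dcn lay within the robust SD of 0.36 of their class of each other, so their order is not determined. The ranges of Prelp (2.54 to 3.21) and Ogn (2.37 to 2.55) over probe sets touch, so no order holds between these either. By contrast, the lowest Ogn ratio was 1.66 log2 units above the Lum ratio. The classes did not separate: class I holds Aspn as well as Bgn and Dcn, and class II holds Prelp as well as Lum and Fmod.

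**Figure D3:**
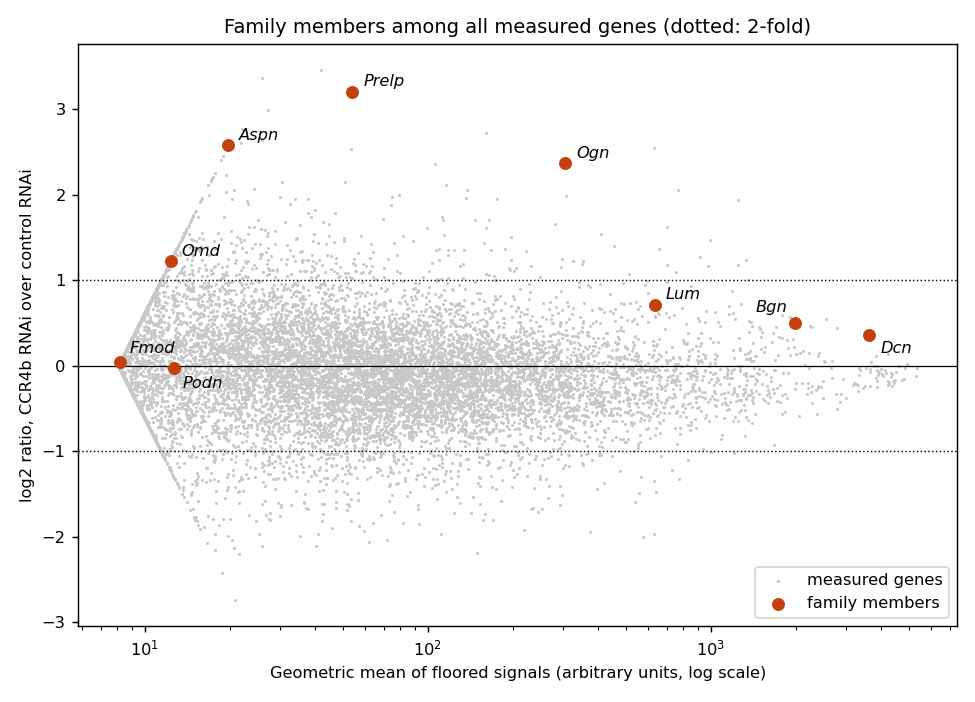
Log2 ratio against the geometric mean of the floored signals (log axis) for the 11915 measured genes (grey) and the 9 measured family members (filled). Prelp and Ogn stand above nearly all genes of like signal, Aspn and Omd lie on the upper edge set by the floor, and Lum, Bgn and Dcn lie on the upper side of the narrow band of bright genes.

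Several members are neighbours in the genome. The members were chosen as a family and on this contrast, so a shared direction of neighbouring members is a description only. In the gene order of the GRCm38.p6 RefSeq table, restricted to genes that the array reads through an unshared probe set, Ecm2, Aspn, Omd and Ogn follow each other, as do Optc, Prelp and Fmod. Dcn, Lum, Kera and Epyc lie together with 1 further transcript, 4930473O22Rik, between Lum and Kera. In the first group Aspn, Omd and Ogn were all at least 2-fold higher, Aspn and Omd by bounds that had to be above 0. Ecm2, a leucine-rich repeat relative of this family, read 4.56 and 2.47 units and was below the floor on both arrays. Past the end of the group, Nol8, a nucleolar protein gene next to Ogn, was 1.80-fold higher (12.1 and 21.7 units), and Iars, an aminoacyl-tRNA synthetase gene, was 1.45-fold lower (178 and 122 units). Ahead of Ecm2 in this order came Tes3-ps (22.2 and 23.9 units, log2 ratio 0.11). Before it stood Cenpp, a centromere protein gene, which was 1.44-fold lower (30.7 and 21.4 units). The order uses gene starts only, so a gene placed beside the group may overlap it. The second group was not uniform: Prelp was 9.25-fold higher, Fmod near the floor, and Optc, which encodes the eye proteoglycan opticin, read 0.749 and 5.77 units, below the floor on both arrays. Beyond Fmod, Btg2, an antiproliferative gene, was 1.45-fold higher (77.0 and 111 units). In the third group Dcn and Lum were measured on both arrays, Kera on neither, and Epyc, which encodes epiphycan, read 5.11 and 9.15 units, at least 1.13-fold higher. Taking 3 genes on each side of every member gave 28 different neighbours outside the family, of which 15 were measured. Their median log2 ratio was 0.00043, and 0 of the 15 were at least 2-fold higher and 0 at least 2-fold lower. Of all measured genes, 3.74% and 4.48% were, so with 15 genes these counts are close to the background.

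The promoters of the 3 adjacent genes that were at least 2-fold higher, of Prelp and, for contrast, of Bgn are printed here, as RefSeq sequence of GRCm38.p6 from 250 bases before to 50 bases after the annotated start, along the gene's own strand. The windows are chr13:49544193-49544492, plus strand for Aspn, chr13:49582212-49582511, plus strand for Omd, chr13:49607765-49608064, plus strand for Ogn, chr1:133921352-133921651, minus strand for Prelp and chrX:73483351-73483650, plus strand for Bgn. Capitals mark every match, on either strand, to a set of short motifs: the TATA box (TATAAA), the CCAAT box (CCAAT), the TEAD motif (GGAATG), the AP-1 motif (TGANTCA), the RUNX motif (TGTGGT) and the CArG box.
Aspn: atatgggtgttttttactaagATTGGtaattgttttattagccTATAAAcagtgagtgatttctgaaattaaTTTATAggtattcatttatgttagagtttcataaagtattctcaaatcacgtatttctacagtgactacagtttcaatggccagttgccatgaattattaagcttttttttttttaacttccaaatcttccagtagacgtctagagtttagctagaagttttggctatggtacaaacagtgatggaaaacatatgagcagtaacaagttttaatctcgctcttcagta
Omd: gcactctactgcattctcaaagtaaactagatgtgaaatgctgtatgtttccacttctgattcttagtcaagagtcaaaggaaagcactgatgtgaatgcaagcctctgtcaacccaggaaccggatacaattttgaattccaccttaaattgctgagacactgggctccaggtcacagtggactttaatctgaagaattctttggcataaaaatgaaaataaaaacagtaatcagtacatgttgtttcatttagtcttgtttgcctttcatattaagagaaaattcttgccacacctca
Ogn: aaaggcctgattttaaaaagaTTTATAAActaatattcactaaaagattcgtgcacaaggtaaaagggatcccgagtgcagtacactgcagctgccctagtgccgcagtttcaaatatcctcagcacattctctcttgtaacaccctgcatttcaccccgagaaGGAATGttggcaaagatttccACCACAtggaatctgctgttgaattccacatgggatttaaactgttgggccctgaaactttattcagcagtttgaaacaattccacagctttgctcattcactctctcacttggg
Prelp: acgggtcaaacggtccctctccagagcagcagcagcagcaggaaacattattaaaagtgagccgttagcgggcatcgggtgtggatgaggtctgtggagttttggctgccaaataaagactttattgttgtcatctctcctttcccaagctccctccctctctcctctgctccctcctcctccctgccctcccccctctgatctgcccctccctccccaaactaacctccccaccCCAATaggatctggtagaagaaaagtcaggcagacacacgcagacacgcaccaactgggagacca
Bgn: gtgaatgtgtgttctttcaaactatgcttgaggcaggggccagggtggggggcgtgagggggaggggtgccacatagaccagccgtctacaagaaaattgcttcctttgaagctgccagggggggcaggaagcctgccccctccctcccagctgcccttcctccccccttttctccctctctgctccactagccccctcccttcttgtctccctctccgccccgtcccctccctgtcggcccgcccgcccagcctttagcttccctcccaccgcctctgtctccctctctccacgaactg

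The table held promoters for 8 of the 10 members. The Aspn window had a GC content of 31.0%, Omd 37.7% and Ogn 42.3%, all below the median of 52.7% over 32851 promoters. Prelp had 55.3% and Bgn 63.7%. Among the windows not printed, Kera had 41.0% and Fmod 51.0%, also below the median, and the Podn windows had 63.0% and 77.0%. A low GC content was therefore not limited to members at least 2-fold higher. The Ogn window held 2 overlapping TATA box matches, 1 on each strand, with 1 TEAD and 1 RUNX match. These TATA box matches lay near the upstream end of the window, far from the annotated start. The Aspn window held 2 TATA box matches and 1 CCAAT box match. Its TATA box matches also lay in the upstream part of the window, far from the annotated start. The Prelp window held 1 CCAAT box match, and the Omd and Bgn windows held none of the motifs. Matches were counted at any position in a window. Over all promoters, the TATA box was found in 13.6%, the CCAAT box in 37.4%, the TEAD motif in 14.7%, the AP-1 motif in 7.81%, the RUNX motif in 16.8% and the CArG box in 1.63%. No searched motif was shared by Aspn, Omd and Ogn. A match is a description of these letters only, and a lack of one says nothing about the factor.

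The rest of the family was hardly detected. Of 8 further genes of the family and its close relatives, 6 had a probe set of their own, and Epyc alone reached the floor. Optc, Chad, Nyx, Chadl and Ecm2 stayed below it on both arrays.

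Enzymes that build the sugar chains were set beside the cores. Of 18 genes for chondroitin and dermatan sulfate synthesis, 14 were measured, with a median log2 ratio of 0.35 against -0.070 for all measured genes. Of these, 5 were at least 1.5-fold higher and 0 at least 1.5-fold lower, where 11.3% and 14.6% of measured genes were. Chpf, a chondroitin polymerising factor, went from 12.6 to 28.1 units (2.23-fold). Csgalnact1, which starts chondroitin chains, went from 67.2 to 138 units (2.05-fold) and was higher on both of its probe sets. Of 9 genes for keratan sulfate, 7 were measured and had a median of 0.60, with 4 at least 1.5-fold higher and 1 at least 1.5-fold lower, most of them dim. Chst2, a sulfotransferase, went from 9.53 to 16.6 units (1.74-fold), Chst5, another, from 1.46 to 12.9 units (at least 1.60-fold), and B3gnt7, a chain-extending enzyme, from 14.2 to 4.65 units (at least 1.76-fold lower). With each array divided by its median the keratan sulfate median was 0.28.

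The enzymes of the linkage region, shared by chondroitin, dermatan and heparan sulfate, had a median of -0.017 over 8 measured genes, a sign that turned with quantile normalization (0.13). B4galt7, a linkage galactosyltransferase, was 1.501-fold higher. Uxs1, which makes UDP-xylose, went from 126 to 48.8 units (2.58-fold lower) on the probe set that stood for it, but had a log2 ratio of 0.10 on another. Fam20b, a xylose kinase, was 1.58-fold lower. Proteoglycan cores outside the family had a median of 0.077 over 16 measured genes, and -0.017 with each array divided by its median. Of these, 4 were at least 1.5-fold higher and 1 at least 1.5-fold lower, beside 11.3% and 14.6% of all measured genes. Sdc2, syndecan 2, went from 249 to 471 units (1.89-fold) and Gpc1, glypican 1, from 56.8 to 95.9 units (1.69-fold), while Cd44, a hyaluronan receptor that can carry chondroitin sulfate, was 1.54-fold lower.

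**Figure D4:**
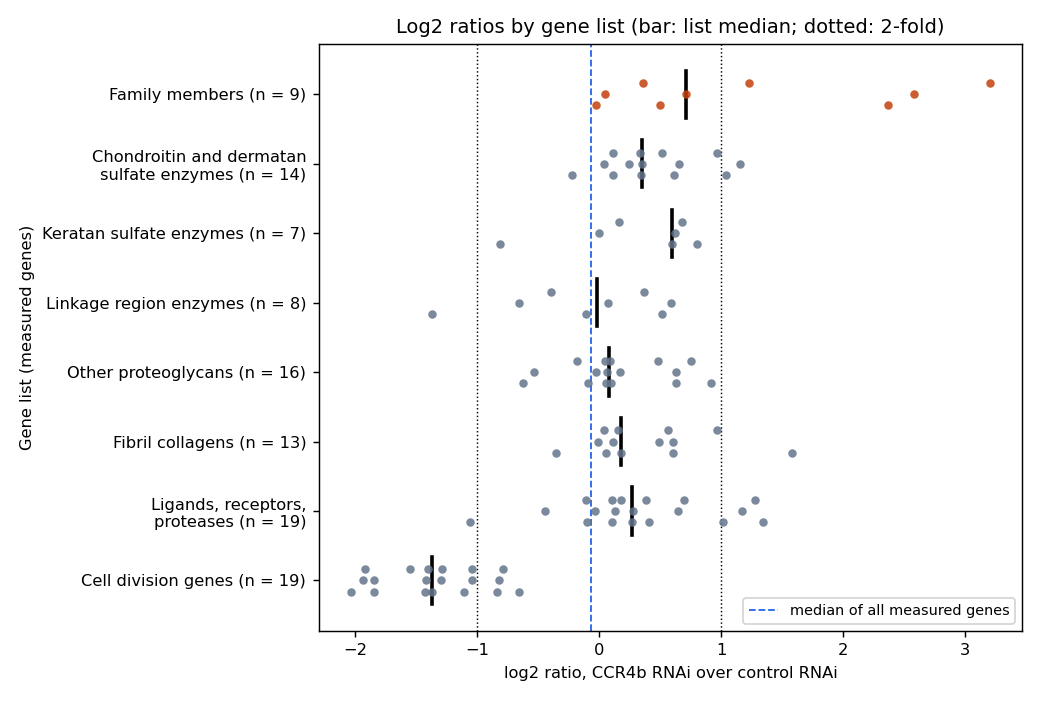
Log2 ratios of the measured genes of each list (points), with the list median (bar) and the median of all measured genes, -0.070 (dashed). The family members spread from -0.027 to 3.21, the sugar-chain enzymes and matrix partners lie mostly within 2-fold, and all 19 cell division genes lie below 0.

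Among the collagen partners of these proteins, 13 of 15 genes for fibril-forming collagens, fibril-associated collagens and collagen VI were measured, with a median of 0.18. Of these, 4 were at least 1.5-fold higher and 0 at least 1.5-fold lower, beside 11.3% and 14.6% of all measured genes. Col11a1, a minor fibril collagen that sets fibril diameter, was 2.99-fold higher (16.7 and 49.95 units). Col6a3, a chain of the microfibrillar collagen to which decorin and biglycan bind, was 1.95-fold higher (349 and 682 units). Ligands, receptors and proteases of the family had a median of 0.27 over 19 measured of 24 genes, with 4 past 2-fold upwards and 1 downwards, where 3.74% and 4.48% of all measured genes were. Adamts5, an aggrecan-cleaving protease, was 2.54-fold higher (139 and 354 units) and Mmp2, gelatinase A, 2.42-fold higher (588 and 1423 units). The other two were the biglycan receptors Tlr4 (42.3 and 95.1 units, 2.25-fold) and Tlr2 (78.4 and 159 units, 2.02-fold), named after their values were seen. The 3 measured probe sets of Tlr4 were all higher, with log2 ratios from 0.34 to 1.17. Ccn4, a matricellular protein of the WNT1-inducible family that binds decorin and biglycan, went from 46.6 to 22.3 units (2.09-fold lower), with the same direction on its second probe set. Bmp1, the protease that trims the propeptides of biglycan and osteoglycin, had a log2 ratio of 0.41, and Tgfb1, Tgfb2 and Tgfb3 had 0.27, 0.64 and 0.38. The 4 measured probe sets of Tgfb2 did not agree, with log2 ratios from -0.16 to 1.61.

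Other features of the cultures moved with these differences. All 10 fibroblast markers were above the floor on both arrays. Their summed signal was 18531 units in the control and 20602 units after CCR4b RNAi. Log2 ratios were above 0 for 7 of the 10, with a median of 0.24. Only Col1a1, 1.52-fold higher (942 and 1429 units), and Thy1, 1.70-fold lower (221 and 130 units), passed 1.5-fold. A sum is weighted by its brightest probe sets, so sums of different marker lists are not comparable. Of 20 genes of DNA replication and mitosis, 19 were measured and all 19 were at least 1.5-fold lower, against 14.6% of all measured genes, with a median log2 ratio of -1.37; Cdc6 was 4.10-fold and Aurkb 3.84-fold lower. Their part in the higher proteoglycan signals was not tested. Markers of the skeletal lineages in which osteoglycin, osteomodulin and asporin are known were mostly below the floor. Of 9 chondrocyte markers 3 were above it in the control and 2 after CCR4b RNAi (summed signals 146 and 176 units), with Col2a1, Matn1 and Hapln1 below it on both. Sox9 (109 and 144 units), which made up most of these sums, and Acan (11.1 and 11.8 units) were above the floor on both. Of 5 osteoblast markers with a probe set, 2 and 1 were above it (summed signals 29.0 and 27.1 units), with Ibsp and Dmp1 below it on both. Alpl was above the floor on both (14.1 and 9.08 units). Of 4 tenocyte markers, Mkx alone was above it (10.6 and 19.8 units), and the summed signals were 16.2 and 25.9 units. Of 5 adipocyte markers with a probe set, Lpl, which encodes lipoprotein lipase, was 4.15-fold higher (374 and 1554 units), which took the summed signal from 431 to 1617 units, while Pparg, Cebpa and Adipoq stayed below the floor on both arrays. Fabp4 was above the floor on both (49.1 and 55.5 units). Muscle markers summed to 548 and 812 units, nearly all from Acta2, with Myod1, Myog and Des below the floor. Macrophage markers summed to 92.99 and 105 units, with Ptprc and Itgam below the floor on both arrays, Cd68 2.55-fold lower and Lyz2 at least 2.83-fold higher. Csf1r (18.4 and 17.5 units), Adgre1 (13.7 and 9.13 units) and Cd14 (21.3 and 38.2 units) were above the floor on both arrays. The part of these markers in the result was not tested. Endothelial markers were below the floor throughout, at 13.3 and 12.6 units in sum, and of 5 epithelial markers only Epcam was above it (summed signals 41.1 and 43.6 units).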

How the data were processed

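Total RNA of 1 control RNAi and 1 CCR4b RNAi culture was hybridised to Affymetrix GeneChip Mouse Genome arrays, per the series design text. The authors deposited 1 linear intensity per probe set, from GCOS with a global normalization, per the series design text and the submitters' processing notes. The GCOS version, normalization target, detection calls and genome build were not given in the sources used here. With intensities, the number of arrays limits the precision.

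The platform annotation gives 1 symbol for 34958 probe sets, several for 932 and none for 9211. Probe sets with 1 symbol were used. Signals were raised to the 50th percentile of all values (8.07 units) and turned into log2 ratios. Each gene was represented by its brightest probe set (mean log2 signal over both arrays). Spread is the robust SD of ratios in 10 equal classes of signal. The text names all members on their probe sets, Cnot6l, up to 2 genes per direction and list that differ at least 1.5-fold, and neighbours of clustered members. Outside this rule, Tlr2, Tlr4, Bmp1, the TGF-beta ligands and single cell type markers were named after their values were seen. Members and lists were chosen with earlier results of these data known. Ratios were computed in Python 3.11.15 with pandas 2.3.3 and checked on simulated data.

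The alternatives were quantile normalization, division by the array median, loess on signal (span 0.3, statsmodels 0.14.6), a floor at the 25th or at the 75th percentile, log2 of signal plus 1 in place of a floor, the median over probe sets, and leaving out _x_at and _s_at probe sets.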

Additional observations from a re-analysis of the deposited data

How the results depend on the processing

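Under the 8 alternatives no value past 2-fold changed sign, and 140 of 161 values moved by less than the 0.30 log2 units between probe sets of one gene or, for counts, by less than 1.5 times. The number of members at least 2-fold higher was 4 throughout, except 2 with the floor at the 75th percentile, which lies at 35.8 units and left 6 members measured. Over the measured members the median was 0.71 log2 units, and 1.02 with quantile normalization, where Fmod was no longer measured. It was 0.90 after division by the array median, where 8 members were measured, and 0.61 with the floor at the 75th percentile. The Aspn log2 ratio ran from 0.43 to 3.22 and that of Omd from 1.07 to 3.14, which moved with the floor, that of Prelp from 2.20 to 3.28, and that of Ogn from 2.27 to 2.55. Without _x_at and _s_at probe sets, 3 of 3 further probe sets of the members had the sign of the brightest. At the main floor this held for 10 of 10, where the floor fixed the signs of Aspn and Fmod. With the floor at the 25th percentile it held for 10 of 11. Epyc, the one further family gene measured at the main floor, had 0.18, and the median of such genes was 0.84 with the floor at the 25th percentile and 0.73 with no floor. The keratan sulfate median was 0.28 after division by the array median and 0.16 with the higher floor. The collagen median was 0.49 with the lower floor, 0.48 with the higher floor and 0.49 with no floor. The cause was not tested for these lists. The share of all measured genes at least 2-fold higher was 3.74% as reported, 11.0% with the lower floor, 7.56% with no floor and 1.73% with the higher floor, and the share at least 2-fold lower was 4.48%, 11.0%, 7.75% and 3.64%. No paired analysis was possible because each group has 1 array and the labels carry no replicate numbers.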
